A study of Mus musculus with 12 samples.

Results

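The 8 genes described here, Upk3b, Pkhd1l1, Msln, Wt1, Lrrn4, Gpm6a, Upk1b and Rspo1, are known markers of mesothelium, and they are followed through lung tumours and the normal lung beside them in mice that received HDM, short for house dust mite, or VEH. They were picked by symbol out of 78298 gene identifiers, and all 8 were among the 22190 genes with enough counts to be tested. Pkhd1l1, Wt1 and Lrrn4 had enough counts only through the normal libraries, so in tumour against normal tissue they could be called only as lower. The choice drew on earlier results of the same libraries, in which Upk3b and Pkhd1l1 fell strongly in tumours under VEH. Tumour against normal tissue under VEH is therefore given for the 8 genes as a description with no test.

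Mesothelium is the single layer of flat cells that covers the lung surface as visceral pleura and lines the chest wall. It carries epithelial features such as keratins and junctions together with mesodermal regulators such as WT1, and it secretes a lubricating surface layer. In lung tissue it lies at the outer edge of a piece. Of the 8 genes, Upk3b and Upk1b encode uroplakins, membrane proteins first known from bladder epithelium. Msln encodes mesothelin, a surface glycoprotein held by a lipid anchor. Gpm6a, Lrrn4 and Pkhd1l1 encode other membrane proteins, Wt1 a zinc finger transcription factor, and Rspo1 a secreted ligand that strengthens Wnt signalling.

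The study comprised 12 RNA-seq libraries, 3 in each of 4 groups: normal lung with VEH, normal lung with HDM, tumour with VEH and tumour with HDM. All came from lung. Tumours are labelled LLC and were cut out by hand under a microscope together with the normal tissue beside them, and HDM exposure is described as chronic. Strain, genotype, age, dose, duration and what VEH stands for are not given in the sources used here, and a hand-dissected piece can hold any share of its surface layer. Libraries are named here by group and replicate number, such as normal VEH 2.

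Total counts ranged from 20608682 to 32765364 per library. Nothing in the labels says that replicates came from separate animals, so p-values measure the spread between these samples. The names of the libraries begin with 6 different prefixes, and a prefix always joins 1 normal with 1 tumour library. In 2 of these pairs the treatment labels conflict: normal VEH 2 goes with tumour HDM 2, and normal HDM 3 goes with tumour VEH 3. The labels were kept, and results are also given without these 4 libraries. Normal VEH 1 and normal VEH 2 stood apart for the 8 genes: normal VEH 1 was the lowest normal library for 8 of 8 (20.5% of all genes tested) and normal VEH 2 the highest for 7 of 8 (20.1% of all genes).

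Promoter sequences show what the genes share near their starts. RefSeq promoters (250 bases before to 50 bases after a start, from a table on GRCm38.p6, each matched once and exactly to GRCm39) were held for 4 of the 8 genes, with 5 starts in all. They were searched on both strands for GGAATG, the core of the site bound by TEAD factors, and for GTGGGAG, part of the WT1 site. GGAATG was found at 3 of the 5 starts, against 14.7% of 32851 promoters of the same length. GTGGGAG was found at 0 of the 5, against 9.73% of all. The 3 promoters with GGAATG are printed 5′ to 3′ on the strand of the gene. Capitals mark the match, which reads CATTCC where it lies on the opposite strand.
Upk3b, chr5:136067100-136067399, plus strand: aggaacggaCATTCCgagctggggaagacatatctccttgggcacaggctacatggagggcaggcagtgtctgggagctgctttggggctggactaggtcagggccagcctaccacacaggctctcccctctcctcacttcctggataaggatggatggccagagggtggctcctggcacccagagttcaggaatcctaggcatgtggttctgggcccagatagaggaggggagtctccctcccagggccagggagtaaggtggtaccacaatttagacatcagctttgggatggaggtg
Lrrn4, chr2:132722733-132723032, minus strand: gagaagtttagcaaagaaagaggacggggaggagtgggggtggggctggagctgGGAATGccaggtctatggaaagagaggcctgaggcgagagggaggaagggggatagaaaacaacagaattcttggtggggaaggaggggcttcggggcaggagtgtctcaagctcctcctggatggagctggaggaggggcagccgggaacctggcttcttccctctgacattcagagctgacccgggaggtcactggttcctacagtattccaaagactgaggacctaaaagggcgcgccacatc
Gpm6a, chr8:55232219-55232518, plus strand: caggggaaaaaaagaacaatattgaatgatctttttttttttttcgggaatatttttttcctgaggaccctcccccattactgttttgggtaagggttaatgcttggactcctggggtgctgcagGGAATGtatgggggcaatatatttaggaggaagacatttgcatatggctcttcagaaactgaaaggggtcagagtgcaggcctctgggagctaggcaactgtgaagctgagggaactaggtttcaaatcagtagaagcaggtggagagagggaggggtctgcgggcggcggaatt
The Gpm6a start shown lies upstream of the span that GENCODE M39 gives to the gene, which begins at 55407719, and the Lrrn4 start lies inside its gene's span. The second Gpm6a start and the Rspo1 start held neither motif. These matches describe letters in the window only.

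In the 6 normal libraries, levels per length were compared as RPKM, counts scaled by the library total and by the deposited gene length. Msln stood highest at 51.9 ± 52.7 (mean ± SD, n = 6), followed by Gpm6a at 47.0 ± 39.3, Upk3b at 31.1 ± 27.1 and Upk1b at 25.0 ± 22.4. Lrrn4 followed at 12.4 ± 14.1, Rspo1 at 11.2 ± 8.46, Pkhd1l1 at 2.25 ± 3.17 and Wt1, the transcription factor, lowest at 1.67 ± 2.20. The SD came near or above the mean for each gene, so neighbours in this order did not differ beyond their spread. Within libraries the order was firmer for some neighbours: Gpm6a exceeded Upk3b, Upk1b exceeded Lrrn4 and Rspo1 exceeded Pkhd1l1 in 6 of 6 normal libraries. Msln exceeded Gpm6a in 3 of 6.

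**Figure D1:**
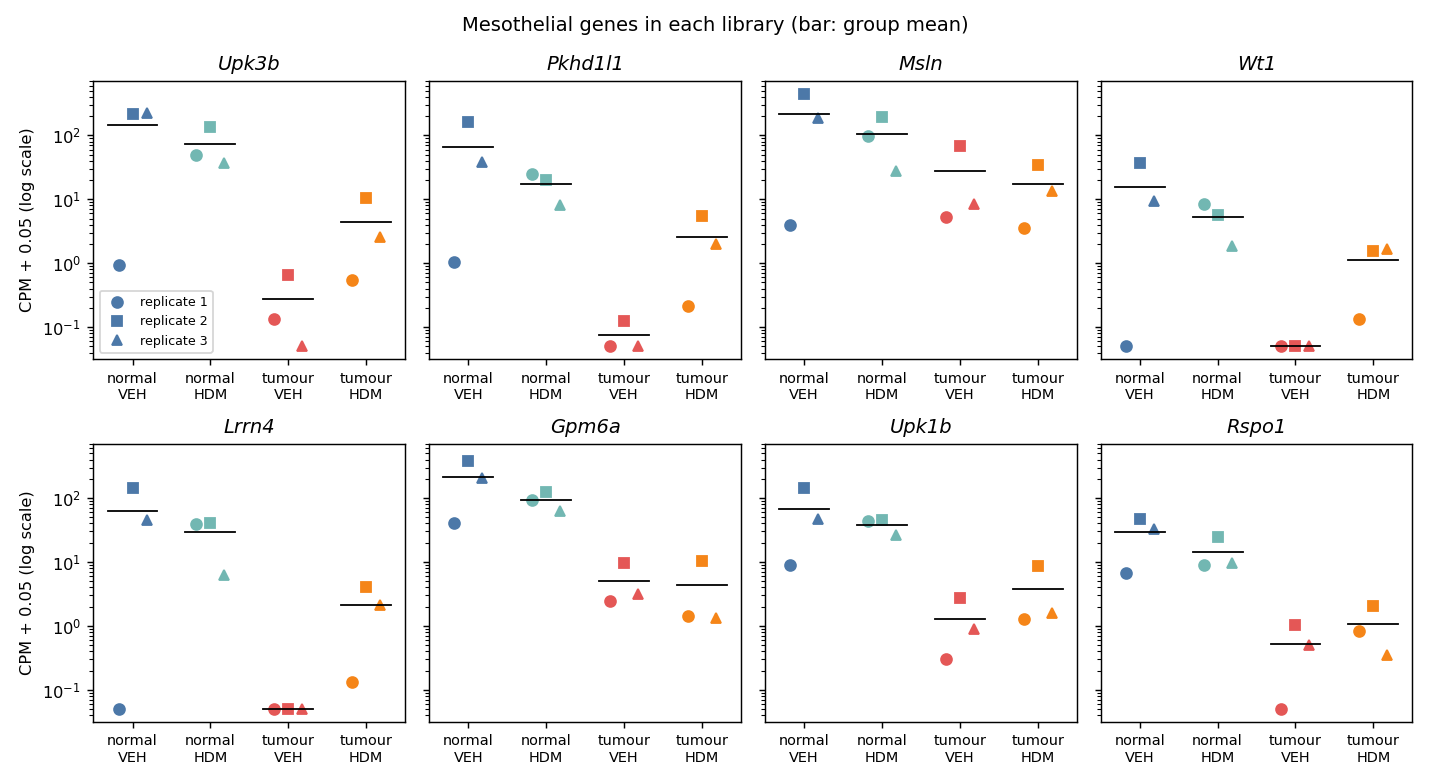
Level of each of the 8 genes in each library, in CPM (counts relative to the TMM-scaled library total) plus 0.05 on a log axis, by group; symbols give the replicate number and bars the group mean. Normal VEH 1 lies at the bottom of the normal libraries for all 8 genes, and tumour VEH libraries hold 0 counts of Wt1 and Lrrn4.

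The uroplakin gene Upk3b (ENSMUSG00000042985, GRCm39 chromosome 5, 136067350 to 136075342) was abundant in 5 of 6 normal libraries and close to 0 in the VEH tumours. Its level, in CPM, was 0.904, 216 and 224 CPM in normal VEH 1, 2 and 3 and 48.8, 133 and 36.8 CPM in normal HDM 1, 2 and 3. In tumours it was 0.0850, 0.595 and 0 CPM under VEH and 0.493, 10.2 and 2.49 CPM under HDM. Tumour and normal libraries did not overlap within either treatment, although normal VEH 1 lay below tumour HDM 2 and tumour HDM 3. Under HDM, Upk3b fell by 4.04 ± 1.55 on the log2 scale (SE, n = 3 each, adjusted p 0.0485, edgeR quasi-likelihood test with Benjamini-Hochberg adjustment), from 73.0 ± 52.6 to 4.41 ± 5.15 CPM (SD). The tumour mean was 1.49 CPM without tumour HDM 2. This call sat at the threshold. It was lost on leaving out any library of the comparison except tumour HDM 2, with log2 fold changes between -4.26 and -3.27 and adjusted p between 0.0634 and 0.134. Under VEH the log2 fold change was -9.22.

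Upk1b (ENSMUSG00000049436, chromosome 16, 38591981 to 38620727), the tetraspanin-type uroplakin, showed the same separation with less scatter. Normal VEH libraries held 8.83, 143 and 46.4 CPM, and normal HDM libraries 43.1, 44.9 and 26.7 CPM. Tumours held 0.255, 2.68 and 0.830 CPM under VEH and 1.23, 8.54 and 1.52 CPM under HDM, so all 6 tumours lay below all 6 normal libraries, by a narrow margin between tumour HDM 2 and normal VEH 1. Under HDM it fell by 3.34 ± 1.09 on the log2 scale (adjusted p 0.0262, edgeR quasi-likelihood test). Leaving out normal HDM 1, normal HDM 2, tumour HDM 1 or tumour HDM 3 raised the adjusted p above 0.05, up to 0.0936. Without tumour HDM 2 the log2 fold change was -4.68.

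Msln (ENSMUSG00000063011, chromosome 17, 25967312 to 25985619) kept the highest level per length in tumours, at 7.26 ± 8.32 RPKM over the 6 tumours. Normal VEH libraries held 3.94, 448 and 187 CPM, and normal HDM libraries 96.1, 191 and 27.8 CPM. Tumours held 5.18, 69.1 and 8.30 CPM under VEH and 3.49, 34.1 and 13.4 CPM under HDM. The groups overlapped under both treatments: normal VEH 1 lay below all 3 VEH tumours, and tumour HDM 2 lay above normal HDM 3. Under HDM the log2 fold change was -2.63 ± 1.47 (adjusted p 0.156, edgeR quasi-likelihood test), which did not pass. Tumour VEH 2, the tumour with the most Msln, also had the highest summed airway marker level among tumours, 19655 CPM against 19.3 to 6225 CPM in the others. Its alveolar sum was the highest too, at 8463 CPM against 47.4 to 2424 CPM. The same held for endothelial markers (400 against 83.4 to 245 CPM) and smooth muscle markers (81.8 against 15.5 to 55.2 CPM). Its adventitial fibroblast sum was the lowest of the tumours, 438 CPM. The part of any of these cell types in its Msln level was not tested.

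Gpm6a (ENSMUSG00000031517, chromosome 8, 55407719 to 55513912), a membrane glycoprotein best known from neurons, gave the smallest adjusted p of the 8. It had 40.9, 380.5 and 207 CPM in normal VEH libraries and 92.4, 122 and 62.6 CPM in normal HDM libraries. Tumours had 2.38, 9.67 and 3.14 CPM under VEH and 1.40, 10.3 and 1.27 CPM under HDM. Every tumour lay below every normal library, normal VEH 1 included. Under HDM it fell by 4.41 ± 1.05 on the log2 scale (adjusted p 0.00578, edgeR quasi-likelihood test), and this call held in all 6 fits that left out 1 library of the comparison, with adjusted p up to 0.0254. The log2 fold change was -6.0 without tumour HDM 2.

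Lrrn4 (ENSMUSG00000043110, chromosome 2, 132705985 to 132735941), a leucine-rich repeat membrane protein, went from abundant to no counts at all. Normal VEH libraries held 0, 145 and 45.0 CPM, and normal HDM libraries 39.6, 40.9 and 6.26 CPM. All 3 VEH tumours held 0, and HDM tumours held 0.0821, 3.96 and 2.09 CPM. Normal VEH 1 thus had no Lrrn4, like the VEH tumours. Under HDM the groups did not overlap, and the log2 fold change was -3.81 ± 1.88 (adjusted p 0.121, edgeR quasi-likelihood test). Under VEH the level was at least 505-fold lower in tumours, against a floor of 3 counts per library, and at least 179-fold lower without normal VEH 2. Lrrn4 overlaps Crls1, and whether counting used the strand is not stated in the sources used here. In the 4 libraries with no Lrrn4 counts Crls1 held 538 to 701 counts, so Crls1 reads there were not counted for Lrrn4. The library with most Lrrn4 counts, normal VEH 2 with 4623, also had the most Crls1 counts, 1799.

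Pkhd1l1 (ENSMUSG00000038725, chromosome 15, 44320818 to 44464765), a very large membrane protein related to fibrocystin, had 0.986, 159 and 38.4 CPM in normal VEH libraries and 24.7, 19.6 and 7.95 CPM in normal HDM libraries. VEH tumours had 0, 0.0744 and 0 CPM, at most 2 counts, and HDM tumours had 0.164, 5.46 and 1.94 CPM. The groups did not overlap within either treatment. Under HDM the log2 fold change was -2.78 ± 1.38 (adjusted p 0.114, edgeR quasi-likelihood test), and with the library-name prefix as a block it was -4.92 with an adjusted p of 0.00754. Under VEH it was at least 525-fold lower in tumours, and at least 157-fold lower without normal VEH 2.

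Wt1 (ENSMUSG00000016458, chromosome 2, 104956625 to 105003961), the transcription factor that defines mesothelium of the body cavities, had 0, 37.2 and 9.26 CPM in normal VEH libraries and 8.27, 5.59 and 1.84 CPM in normal HDM libraries. All 3 VEH tumours held 0 counts, and HDM tumours held 0.0821, 1.503 and 1.64 CPM, which are 2, 44 and 54 counts. It was absent from normal VEH 1 as from the VEH tumours. The log2 fold change under HDM was -2.27 ± 1.64 (adjusted p 0.275, edgeR quasi-likelihood test) with no overlap between the groups. Under VEH it was at least 123-fold lower in tumours, or at least 36.8-fold lower without normal VEH 2.

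Rspo1 (ENSMUSG00000028871, chromosome 4, 124879876 to 124902892), the secreted ligand among the 8, had 6.74, 47.8 and 32.8 CPM in normal VEH libraries and 8.85, 24.8 and 9.72 CPM in normal HDM libraries. Tumours had 0, 0.967 and 0.461 CPM under VEH and 0.780, 1.98 and 0.303 CPM under HDM. All 6 tumours lay below all 6 normal libraries, as for Gpm6a and Upk1b, which makes 3 of the 8 genes against 19.9% of all genes. Under HDM it fell by 3.82 ± 1.07 on the log2 scale (adjusted p 0.0131, edgeR quasi-likelihood test). The call was lost without tumour HDM 1, where the log2 fold change was -3.53 and the adjusted p 0.0538, and the log2 fold change was -4.62 without tumour HDM 2.

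Across the 8 genes, 4 fell in tumours under HDM (Upk3b, Gpm6a, Upk1b and Rspo1), and none rose, against 28.9% of all genes tested that fell and 23.0% that rose in the edgeR quasi-likelihood test. The libraries did not overlap, with tumours lower, for 7 of 8, against 33.5% of all genes. Pkhd1l1, Wt1 and Lrrn4 are among these 7, and they had enough counts to be tested only through normal libraries. The median log2 fold change of the 8 was -3.57, and that of all genes tested was -0.08. Leaving out 1 library at a time gave between 1 and 4 calls: 1 without tumour HDM 1, and 2 without normal HDM 1, normal HDM 2 or tumour HDM 3. Without the 4 libraries of conflicting prefixes 2 calls were left, Gpm6a and Upk1b. Over all genes, calls in either direction went from 11512 to 8505 in that fit. They went to between 9822 and 10695 without 1 library. With the prefix as a block 6 genes were called lower, adding Pkhd1l1 and Msln (-4.39, adjusted p 0.0148), against 21.8% of all genes in that fit.

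Under VEH, as a description, 5 of 8 genes had every tumour library below every normal one, against 28.5% of all genes. Pkhd1l1, among these 5, had enough counts to be tested only through normal libraries. Msln, Wt1 and Lrrn4 overlapped, each through normal VEH 1. The log2 fold changes of Msln, Gpm6a, Upk1b and Rspo1 were -2.95, -5.36, -5.70 and -5.90, and single libraries moved them. Without tumour VEH 2 they were -4.98, -6.24, -6.93 and -6.98, and that of Upk3b was -11.55. Without normal VEH 2 they were -1.79, -4.60, -4.43 and -5.34. The Msln mean of VEH tumours was 27.5 CPM, or 6.74 CPM without tumour VEH 2, and that of normal VEH libraries was 213 CPM, or 95.7 CPM without normal VEH 2. Msln stood at -1.26 without the 4 libraries of conflicting prefixes and at -0.69 with the prefix as a block. With Pkhd1l1, Wt1 and Lrrn4 placed at their bounds, the median of the 8 was -6.42. In these bulk pieces, fewer mesothelial cells and less RNA of these genes per cell cannot be told apart.

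The prefix pairs give the same comparison between pieces that share a name. Tumour levels were lower for 8 of 8 genes in 5 of the 6 pairs and for 5 of 8 in the pair of normal VEH 1 and tumour VEH 1. In that pair Msln was higher in the tumour by 0.39 on the log2 scale, and Wt1 and Lrrn4 were at 0 in both libraries. Of all genes tested, 30.1% were lower in the tumour in all 6 pairs. Gpm6a, Upk1b and Rspo1 varied least between pairs: Upk1b ranged from -5.10 to -4.06, Rspo1 from -6.49 to -4.19 and Gpm6a from -6.38 to -4.06. Upk3b ranged from -8.92 to -2.61.

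**Figure D2:**
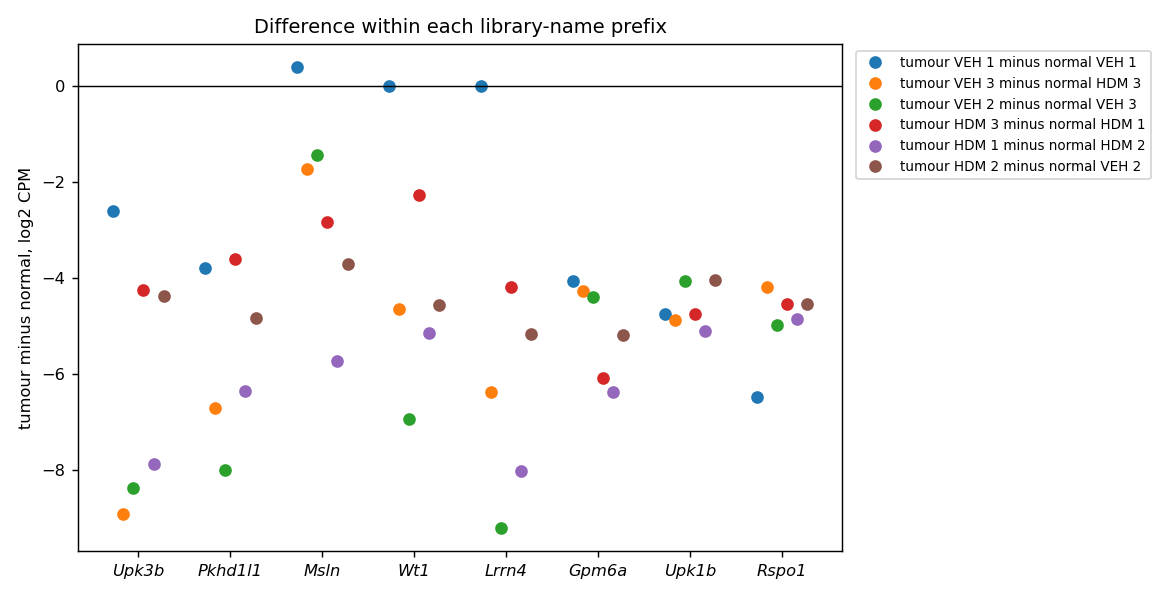
Log2 CPM in the tumour library minus that in the normal library with the same name prefix, for the 8 genes; each colour is 1 of the 6 pairs. Upk1b lies between -5.10 and -4.06 in all 6 pairs, and the pair of normal VEH 1 lies at or above 0 for Msln, Wt1 and Lrrn4.

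The spread between the normal libraries was itself unusual. The SD of log2 CPM over the 6 normal libraries was 3.92 for Lrrn4, 3.07 for Wt1, 2.95 for Upk3b, 2.46 for Msln and 2.42 for Pkhd1l1. It was 1.30 for Upk1b, 1.17 for Gpm6a and 1.16 for Rspo1, and the median over all genes tested was 0.43. The genes varied together: each correlated with the mean of the other 7 over the 6 normal libraries at a Pearson r between 0.852 (Rspo1) and 0.986 (Msln), as a description across libraries in which normal VEH 1 and normal VEH 2 are the extremes.

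Summed over the 8 genes, normal VEH 2 held 1576 CPM, against 62.3 to 791 CPM in the other normal libraries. Among tumours the sum was highest in tumour VEH 2 (83.0 CPM, of which Msln was 69.1) and next in tumour HDM 2 (76.1 CPM). Counted gene by gene, tumour HDM 2 was the highest tumour for 6 of 8 genes, against 15.2% of all genes, with Msln highest in tumour VEH 2 and Wt1 in tumour HDM 3. Normal VEH 2 and tumour HDM 2 share a prefix, and both were highest in their tissue for 5 of 8 genes, against 4.94% of all genes.

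HDM was then compared with VEH in normal tissue. None of the 8 genes passed: there were 0 calls in the edgeR quasi-likelihood test, 0 had an unadjusted p below 0.05, 0 passed in DESeq2, and the adjusted p ranged from 0.929 to 1. Of all genes tested, 0 percent were called in edgeR, and DESeq2 called 0.144% lower and 0.0496% higher. The unadjusted p in edgeR was below 0.05 for 1230 of the 22190 genes tested. The groups overlapped for 8 of 8 genes, against 5.85% of all genes that were lower and 4.47% that were higher in every HDM library, because the HDM libraries lay between normal VEH 1 and normal VEH 2 for each of them. The normal VEH libraries also enter the VEH contrast that informed the choice of genes, so their level is partly built into this comparison. The log2 fold changes of HDM over VEH were between -1.92 (Pkhd1l1) and -0.79 (Upk1b). They depended on normal VEH 2: without it Msln stood at 0.14, Wt1 at 0.18, Lrrn4 at 0.37 and Upk1b at 0.47, and Pkhd1l1 at -0.17. Without normal VEH 1 they lay between -2.5 and -1.31.

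In tumours, HDM and VEH libraries overlapped for 5 of the 8 genes, and none passed the test. The VEH tumours are part of the contrast that informed the choice of genes, so low VEH values of Upk3b and Pkhd1l1 are built into this comparison and its p-values are given as a description. Summed over the 8 genes, VEH tumours held 7.90, 83.0 and 12.7 CPM and HDM tumours 7.72, 76.1 and 24.7 CPM. Pkhd1l1, Wt1 and Lrrn4 were higher in all 3 HDM tumours than in any VEH tumour, which held for 3 of 8 genes against 11.3% of all genes tested. Their levels were at least 20.1-fold (Pkhd1l1), 8.54-fold (Wt1) and 16.3-fold (Lrrn4) higher than the floor of the VEH tumours. Without tumour HDM 2 these bounds were 8.37, 6.84 and 8.64. In the edgeR quasi-likelihood test 0 of 8 passed, and the smallest adjusted p was 0.220 (Pkhd1l1). The unadjusted p of that test was below 0.05 for 3 (Pkhd1l1 0.0158, Wt1 0.0389 and Upk3b 0.0457). It was below 0.05 for 3698 of the 22190 genes tested. Of all genes tested, 0.0946% were called in that comparison in either direction. The DESeq2 Wald test called Pkhd1l1 (adjusted p 0.0137), Lrrn4 (0.0276) and Wt1 (0.0387), in a fit that called 1.15% of all genes higher. Tumour HDM 1 held only 4, 2 and 2 counts of Pkhd1l1, Wt1 and Lrrn4, at or near the floor. Among the others, the log2 fold changes were 4.17 for Upk3b, 1.56 for Upk1b, 1.07 for Rspo1, -0.23 for Gpm6a and -0.70 for Msln.

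The interaction asks whether the tumour difference itself differed between treatments, and it contains the VEH contrast that informed the choice of genes. None of the 8 passed (0 in edgeR, 3 at an unadjusted p below 0.05, smallest adjusted p 0.480 for Pkhd1l1), and 0 percent of all genes passed. The unadjusted p in edgeR was below 0.05 for 2084 of the 22190 genes tested. DESeq2 called Pkhd1l1 alone (adjusted p 0.0418), with 0.167% of all genes called in that direction.

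The make-up of the summed level of the 8 genes differed between tumours and normal tissue. Msln took 5.84% to 33.6% of the summed RPKM of the 8 genes in normal libraries and 41.4% to 82.0% in tumours, so every tumour lay above every normal library. In tumours under VEH its shares were 65.6%, 82.0% and 62.7%. There the shares rest on few genes: in tumour VEH 1 and tumour VEH 3 Msln held 122 and 180 counts, while Pkhd1l1, Wt1 and Lrrn4 held 0. Upk3b had smaller shares in tumours under VEH, going from 12.9% and 26.1% in normal VEH 2 and 3 to at most 0.934% in the VEH tumours, while normal VEH 1 was at 1.16%. In normal VEH 1 Gpm6a took 57.8%. These shares are descriptions, since the levels that form them entered the choice of genes.

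**Figure D3:**
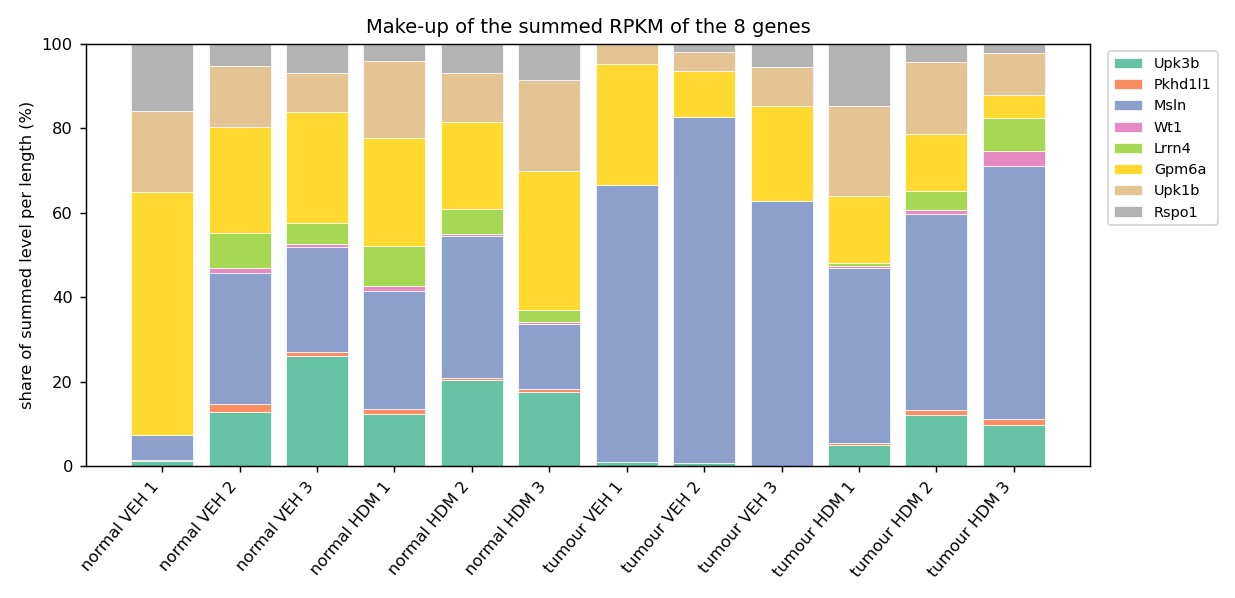
Share of each of the 8 genes in their summed level per length (RPKM), in percent, for each library. Msln takes 41.4% to 82.0% in the 6 tumours and 5.84% to 33.6% in the 6 normal libraries.

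Other genes known from mesothelium were followed as a list of 12, of which 11 had enough counts. The gene left out, Calb2, had 0 counts in every normal library. It had 10, 4 and 8 counts in tumour HDM 2, tumour VEH 1 and tumour VEH 3. Itln1 had 0 counts in every normal VEH library, 86 in normal HDM 2, 54 in tumour VEH 2 and 24 in tumour HDM 1. Under HDM 4 of the 11 fell and none rose, against 28.9% of all genes that fell, with a median log2 fold change of -2.52. Aldh1a2, the retinoic acid synthesis enzyme, fell by 3.65 ± 0.93 on the log2 scale, Nkain4 fell by 4.35 ± 0.73, Dmkn fell by 3.87 ± 0.91 and Slc39a8, a metal ion transporter, fell by 4.22 ± 0.91 (adjusted p 0.000991 to 0.00810, edgeR quasi-likelihood test). Muc16, a surface mucin that binds mesothelin, stood at -2.84 ± 1.73 on the log2 scale (adjusted p 0.191, edgeR quasi-likelihood test) and was not called. It was highest in normal VEH 2 at 97.6 CPM and at 0 in normal VEH 1. This list and the lists that follow were chosen with earlier results of these libraries known, so their counts under VEH are given as a description. Under VEH 8 fell and none rose, against 20.6% of all genes that fell and 18.2% that rose. Under VEH 5 were called without tumour VEH 1 or without tumour VEH 3, and 2 without the 4 libraries of conflicting prefixes. With at least 10 counts in every library 3 were called. Under HDM 5 were called without those 4 libraries. Some of these genes are made by epithelium too, and the summed alveolar and airway markers were lower in tumours as well.

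Bnc1, which encodes a zinc finger protein of basal epithelium and mesothelium, went its own way. In normal tissue it followed the 8 genes, with 0.0821, 38.4 and 11.8 CPM in VEH libraries and 5.73, 5.81 and 1.25 CPM in HDM libraries. All 6 tumours held it, at 16.6, 14.0 and 30.2 CPM under VEH and 25.8, 25.6 and 35.6 CPM under HDM. The HDM tumours lay above all HDM normal libraries, with a log2 fold change of 2.76 ± 1.22 that did not pass (adjusted p 0.0796, edgeR quasi-likelihood test) but passed in DESeq2 (adjusted p 0.0254).

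Keratins shared by mesothelium and lung epithelium split. Under HDM 3 of the list of 5 fell and none rose, beside the 28.9% of all genes that fell: Krt19 fell by 3.76 ± 0.92, Krt7 fell by 3.42 ± 1.07 and the mucin-type membrane protein Pdpn fell by 2.004 ± 0.477 on the log2 scale (adjusted p 0.00589 to 0.0217, edgeR quasi-likelihood test). The Krt7 call was lost without tumour HDM 1, at an adjusted p of 0.0549. Krt8 and Krt18, the keratin pair of simple epithelia, stood at -0.17 ± 0.26 and 0.28 ± 0.19, neither called. Under VEH, as a description, Pdpn fell and Krt18 rose, against 20.6% of all genes that fell and 18.2% that rose. The list had 1 call under VEH without normal VEH 1, normal VEH 3 or tumour VEH 3. Without the 4 libraries of conflicting prefixes it had 1 call under each treatment.

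The R-spondin pathway was described from a list of 11 genes. R-spondins bind LGR receptors and keep the ubiquitin ligases RNF43 and ZNRF3 from removing Wnt receptors. Under HDM 6 of 11 fell and none rose, against 28.9% of all genes that fell, with a median of -2.18 after 2 genes with no counts in HDM tumours were set to their bound. Among ligands, Rspo3 fell by 4.18 ± 0.70 on the log2 scale, from 1.80 to 0.0977 CPM. HDM tumours held only 4, 2 and 2 counts of Rspo3, at or near the floor, so the size of its fall is uncertain. Rspo2 was at 0 in HDM tumours, at least 3.64-fold lower. Rspo2 and Rspo3 passed the filter on low counts only through normal libraries, so they could be called only as lower. The feedback targets Axin2, Nkd1, Rnf43 and Notum all fell, with log2 fold changes of -4.19 ± 0.48, -4.37 ± 0.65, -4.48 ± 0.69 and -2.73 ± 0.67 (adjusted p 0.000153 to 0.00626, edgeR quasi-likelihood test). The receptor Lgr4 and the ligase Znrf3 stood at -0.35 ± 0.34 and -0.49 ± 0.22 and were not called. Under VEH, as a description, 6 of 11 fell and none rose as well, against 20.6% of all genes that fell. Without the 4 libraries of conflicting prefixes 3 were called under VEH and 6 under HDM. Unlike Rspo1, Axin2 and Nkd1 were near even between normal libraries, at 14.4 to 36.4 and 127 to 161 CPM.

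Relatives of the 8 genes by family formed a list of 11, of which 8 had enough counts. Under HDM 5 of the 8 fell and none rose, with 28.9% of all genes lower: Upk1a fell by 6.29 ± 1.18 and Gpm6b, the glial relative of Gpm6a, fell by 4.16 ± 0.998 on the log2 scale, while Upk2, Upk3a and Pkhd1 reached the floor in HDM tumours at bounds of at least 24.5-fold, 13.8-fold and 9.28-fold lower (adjusted p 0.00162 to 0.0353, edgeR quasi-likelihood test). Upk1a, Upk2, Upk3a and Pkhd1 passed the filter on low counts only through normal libraries, so they could be called only as lower. The Pkhd1 call was lost without normal HDM 3 or any of the 3 HDM tumours. Under VEH, as a description, 4 fell and none rose, against 20.6% of all genes that fell. There were 2 calls without normal VEH 1, normal VEH 3, tumour VEH 1 or tumour VEH 3. Without the 4 libraries of conflicting prefixes 4 were called under VEH and 3 under HDM. The uroplakin genes of this list, Upk1a, Upk2 and Upk3a, did not run with Upk3b and Upk1b across normal libraries. Upk1a held 7.97 CPM in normal VEH 1 and 1.64 CPM in normal VEH 2, Upk2 held 6.16 and 0.818 CPM, and Upk3a held 1.81 and 0.315 CPM, whereas Upk3b and Upk1b were lowest in normal VEH 1.

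**Figure D4:**
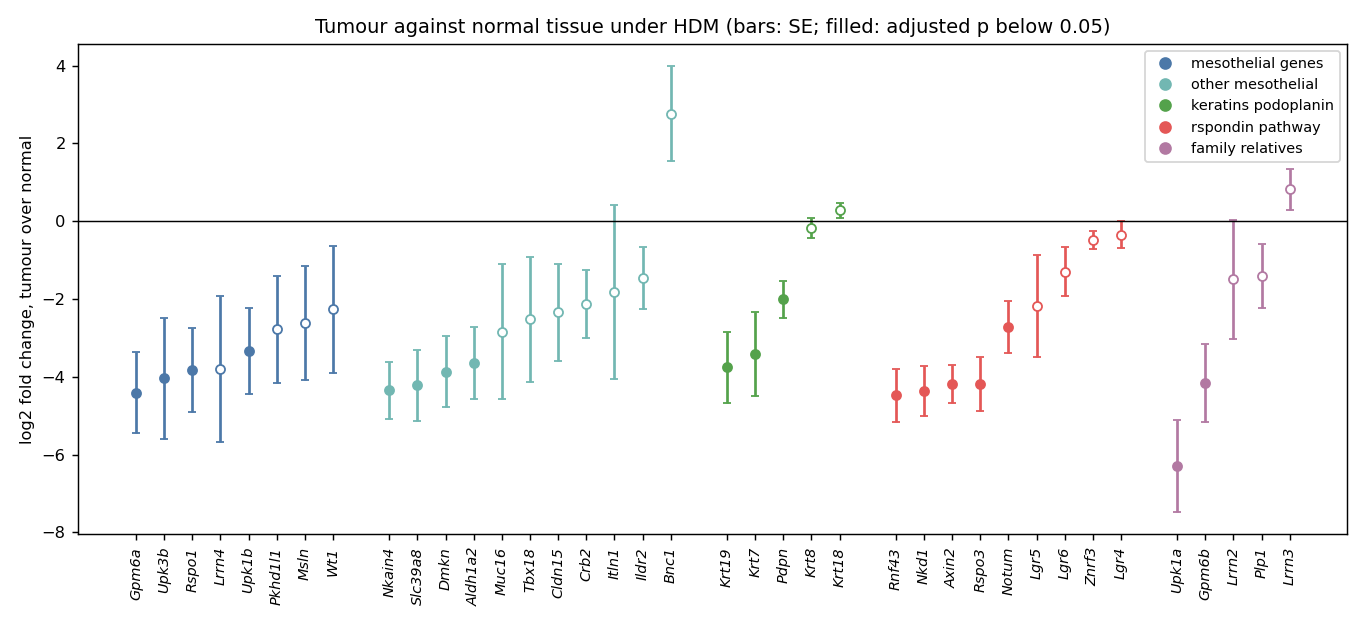
Log2 fold change of tumour over normal tissue under HDM for the 8 genes and 4 lists of related genes, with bars of 1 SE; filled circles passed the edgeR quasi-likelihood test, and genes with a group at the floor of 3 counts are not drawn. The 4 called mesothelial genes lie between -4.41 and -3.34, and Bnc1 is the highest point at 2.76.

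Markers of other cell types also differed between libraries, and their part in the results was not tested. Among normal libraries, normal VEH 1 had the fewest mesothelial transcripts (62.3 CPM summed) and the most airway marker counts (113510 CPM), with 1300 CPM of smooth muscle markers and the lowest alveolar sum (17048 CPM). Normal VEH 2, the highest mesothelial library, had the lowest smooth muscle sum (77.4 CPM) and the lowest endothelial sum (949 CPM). Normal HDM 3, the second lowest mesothelial library at 180 CPM, had the highest smooth muscle sum (1343 CPM). In tumours under HDM, alveolar markers summed to 47.4 to 2424 CPM against 24754 to 42504 CPM in normal HDM libraries, airway markers to 19.3 to 1172 against 24854 to 63116 CPM, and endothelial markers to 83.4 to 227 against 1854 to 2135 CPM. Adventitial fibroblast markers summed higher in HDM tumours, at 677 to 961 CPM against 288 to 453 CPM in normal HDM libraries, and the list was divided: 2 of 7 rose (Dpt and Cd248) and 5 of 7 fell under each treatment (edgeR quasi-likelihood test). All 7 alveolar, 5 airway and 5 endothelial markers were above 0 in every library. Tumour HDM 3 had the lowest alveolar, airway and endothelial sums of all libraries and the highest Wt1 of the tumours, 1.64 CPM.

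**Figure D5:**
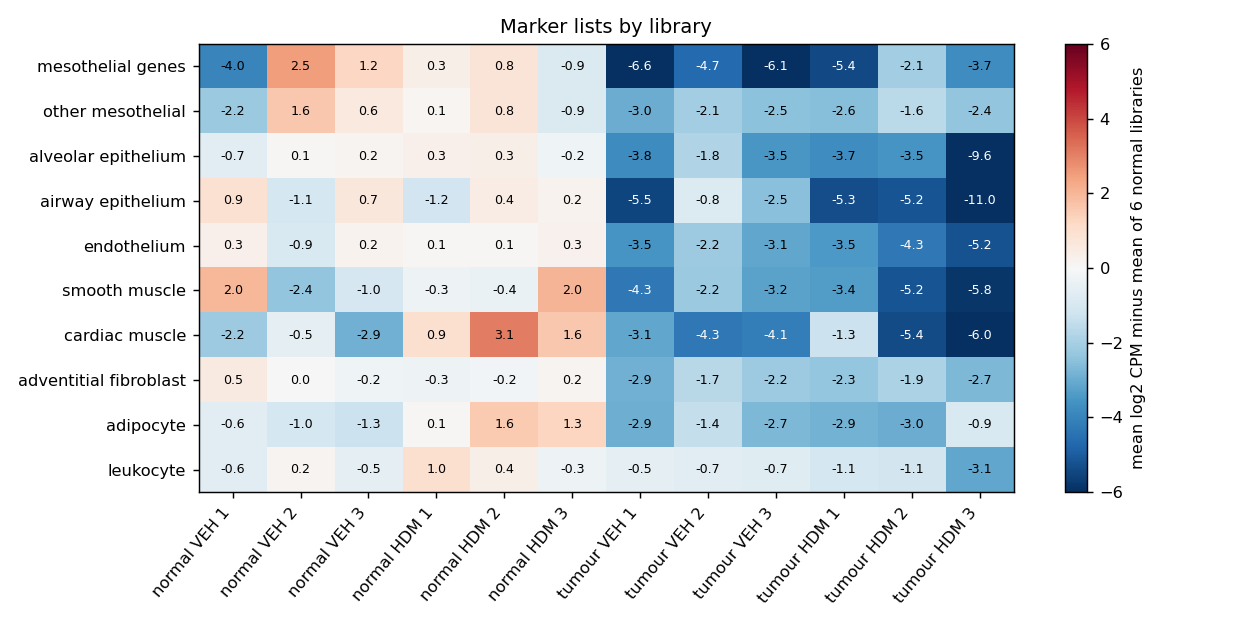
Mean log2 CPM of each marker list in each library minus its mean over the 6 normal libraries, with the value printed in each cell. The mesothelial genes range from -4.0 to 2.5 among normal libraries, a wider range than alveolar or endothelial markers show there. Cardiac muscle markers also range widely there, from -2.9 to 3.1, and smooth muscle markers from -2.4 to 2.0.

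Genes other than the 8 were ranked by how closely they followed them, by the Pearson r of log2 CPM with the mean of their standardised levels, among 12611 protein-coding genes. These are descriptions over few libraries that share the extremes normal VEH 1 and normal VEH 2. Over the 6 normal libraries Aldh1a2 came first (r 0.995), followed by Zng1, Bnc1, Bcar3, Tmem151a, Sbsn, C2, Sema3a, Zfp106 and Zkscan14 (r 0.985). Over all 12 libraries Aldh1a2 was again first (r 0.975), followed by Usp53, Tmem151a, Tfdp2, Sfrp2, Sbsn, Fbxo33, Myrf, Usp54 and Cobll1 (r 0.929). Aldh1a2 and Bnc1 belong to the other mesothelial list, and Sfrp2 to the adventitial fibroblast markers. Bnc1 had an r of 0.995 over normal libraries and of -0.08 over all 12. Within the other mesothelial list, Nkain4, Dmkn and Itln1 followed less closely in normal tissue, at 0.666, 0.299 and 0.167.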

How the data were processed

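RNA-seq was made from hand-dissected lung tumours and adjacent normal lung by a stranded method with paired reads, per the labels' protocols. The authors deposited a table of raw counts per Ensembl gene. The submitters' processing notes name Trim Galore, STAR, featureCounts, Subread and the mm39 build, without versions or the strand setting. Of 78298 identifiers, 78168 were found in GENCODE M39, used here for symbols and GRCm39 positions, and 62058 had the same exon length. Groups came from the sample titles. In each library 68.2% to 72.0% of values from 1 to 20 were even, so a floor of 3 counts may stand for few read pairs; the cause was not tested.

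Counts were fitted in R 4.3.3 with edgeR 4.0.16 (filterByExpr minimum count 10, leaving 22190 genes; TMM; robust quasi-likelihood F-test, two-sided, Benjamini-Hochberg over all genes of a comparison, threshold 0.05), with a coefficient per group over all 12 libraries. CPM were TMM-scaled, and log2 CPM used a prior count of 2. The SE was taken as the size of the log2 fold change over the root of its F statistic. A group with at most 3 counts in every library was placed at that floor. The members and lists were chosen with earlier results of these data known. All 8 members are named, and from each list the called genes with the smallest adjusted p under HDM, up to 4, and genes with a role tied to a member; genes most like the members were the 10 with the highest r. Chosen later for their values were the other list genes named, Bnc1 and Krt8 among them. The fit was tested on simulated counts with the same spread for every gene and no outlying library. The 8 genes differ from that setting, so the simulation does not show how the fit treats them. Alternatives were DESeq2 1.42.0 (size factors, Wald test), library totals, other filters, blocks for replicate number or prefix, removal of libraries, and counts divided by 2 (chosen after seeing the data). The prefix entered only as an alternative, because some prefixes join libraries of different treatment labels. Deviations of same-prefix libraries from their group means correlated at -0.219 to 0.179 over 6 pairs, which does not decide whether the pieces are paired.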

Additional observations from a re-analysis of the deposited data

How the results depend on the processing

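Tumour against normal under HDM kept its direction for each of the 8 genes in every alternative run that tested the gene. The number of the 8 called, 4 in the main analysis, was 2 with no filter on low counts, 1 with at least 10 counts in every library (2 genes tested), 2 without the 4 libraries of conflicting prefixes, and 1 to 4 when 1 library was left out. With the replicate number as a block it was 6. Same-numbered libraries correlated at -0.355 to 0.303 over 18 pairs, 8 of them over 0.1, which does not decide whether the number marks a pairing. The prefix block also gave 6. Over all genes the calls were 11512 in the main analysis, 10230 with no filter and 7900 with at least 10 counts in every library. They were 11001 with the replicate block and 8631 with the prefix block.

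For HDM against VEH in normal tissue the direction turned for several genes, none of them called. With the prefix block the log2 fold changes were 1.76 (Upk3b), 0.12 (Pkhd1l1), 0.86 (Msln), 0.56 (Lrrn4), 0.58 (Gpm6a) and 0.75 (Upk1b). With this block, HDM against VEH in either tissue rests on the pairs with conflicting treatment labels, since every other prefix holds a single treatment. Without the 4 conflicting libraries they were 0.18 (Pkhd1l1), 0.58 (Msln), 0.60 (Wt1), 0.85 (Lrrn4) and 0.68 (Upk1b). With the replicate block Lrrn4 stood at 0.31 and Upk1b at 0.046. Leaving out 1 library gave ranges of -1.78 to 0.14 (Msln), -2.15 to 0.18 (Wt1), -1.72 to 0.37 (Lrrn4) and -1.31 to 0.47 (Upk1b).

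In tumours Upk1b stood at -0.10 without the 4 libraries, and leaving out 1 library gave -1.72 to 1.33 (Msln) and -1.93 to 0.66 (Gpm6a). In the interaction Msln stood at -0.25 (replicate block), -3.70 (prefix block) and -2.73 (without the 4 libraries), Gpm6a at -2.02 and -1.97 and Upk1b at -0.53 and -0.78 in the last 2 of these; leaving out 1 library gave -0.83 to 2.36 (Msln) and -0.72 to 1.84 (Gpm6a). Bnc1 under VEH, 0.27, ranged from -0.31 to 1.77.

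DESeq2 called 3 of the 8 in tumours and 1 in the interaction. Over all genes, HDM against VEH in tumours gave 21 calls in the main analysis, 8 with library totals, 52 with no filter, 53 with the strict filter, 1311 with DESeq2, 1 with the replicate block, 0 with the prefix block or without the 4 libraries, 33 with halved counts and 0 to 24 without 1 library. DESeq2 called 43 genes in normal tissue and 222 in the interaction, where leaving out 1 library gave 0 to 6. The cause of these differences was not tested.

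Counts limit the tumour values: Wt1 and Lrrn4 had 0 counts in 3 tumours and 2 counts in tumour HDM 1, so a difference between tumours at that level was not detectable at this depth.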
